A study of Mus musculus with 6 samples.

Results

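Rest, Rcor1, Rcor2, Rcor3, Sin3a, Sin3b, Phf21a and Hmg20b encode the repressor REST and the core proteins of the CoREST and Sin3 complexes that it brings to DNA. The 8 genes were taken by name from the RNA-seq table, which holds 23235 rows under 22969 names, and each had 1 row. The cells were E14Tg2a, a mouse embryonic stem cell line, at passages 37 to 40. Pluripotent embryonic stem cells (ESCs) grown with LIF, the cytokine that keeps them undifferentiated, gave 3 samples. Cells of the same line that went without LIF and received 1 μM retinoic acid (RA) for 48 h gave the other 3 samples. The name neuronal cells (NCs) for this group is that of the study. The table holds 1 FPKM value per gene and condition, taken here as Cuffdiff's estimate over the 3 samples of the condition. FPKM is a fragment count scaled by transcript length and by the number of mapped fragments, so it allows levels of different genes to be compared. Values of single samples were not analysed here, so no value below carries an SD, n or p-value. The authors' own test columns were not used, so whether any difference exceeded the spread between samples was not tested here. Sequencing depth is unknown for each sample, as is the counting error of each value.

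REST is a zinc finger protein that binds a DNA element called RE1, found at many genes of mature neurons, and keeps those genes off in stem cells and non-neuronal tissues. One end of the protein recruits SIN3A or SIN3B, scaffolds that carry histone deacetylases. The other end recruits a CoREST protein, which ties histone deacetylases to the histone demethylase KDM1A (LSD1). PHF21A, a reader of unmethylated histone H3, and HMG20B, an HMG-box protein, belong to the same CoREST assembly. Rcor1, Rcor2 and Rcor3 are paralogs that each encode a CoREST protein.

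The sequences that follow show letter matches to RE1 and what the genes of the CoREST partners of REST carry at their starts. An RE1 has a left part and a right part. The left part was searched as TTCAGCACC and the right part as GGNCAG, with at most 8 bases between them, on both strands of RefSeq promoters (GRCm38.p6) that run from 250 bases before to 50 bases after a gene's start. Of 29 genes listed as textbook RE1 targets, 21 had such a promoter, 31 windows in all, and 4 of these windows, each at another gene, held both parts. Of all 32851 promoters, 0.0517% held both and 0.371% held the left part. Of the 11 windows found at 7 of the 8 repressor genes, all but Rest, 0 held the left part, which is near that share. The 4 stretches are given on the strand of the match, with both parts in capitals.
Syn1, chrX:20921121-20921156, minus strand: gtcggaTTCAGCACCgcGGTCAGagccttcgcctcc
Celsr3, chr9:108825912-108825947, plus strand: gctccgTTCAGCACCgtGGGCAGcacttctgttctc
Unc13a, chr8:71671721-71671756, plus strand: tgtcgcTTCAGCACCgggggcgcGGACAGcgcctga
Scg2, chr1:79440019-79440054, plus strand: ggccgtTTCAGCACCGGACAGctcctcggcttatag
In Syn1 and Celsr3 the parts lay 2 bases apart, in Unc13a 8 bases and in Scg2 0 bases. A match of letters is a description and not a measured site, and targets without one may hold an RE1 elsewhere.

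Promoters were found for 7 of the 8 genes, all but Rest, as 11 windows. The GC box GGGCGG, searched on both strands, occurred in 10 of the 11 windows and at all 7 genes. Among all promoters 35.7% held it. The windows of Hmg20b overlap each other and share GC boxes, so the 11 windows are not independent. The windows had 33.3% to 81.7% G and C, against a median of 52.7% over all promoters, and the lowest was the second window of Phf21a. The half-site AGGTCA of nuclear receptors was in 0 of the 11 windows and in 16.3% of all promoters. The windows of Rcor2 and Rcor3 are shown because these were the CoREST genes with the highest and the lowest FPKM. Capitals mark the GC boxes on either strand, of which Rcor2 has 1 and Rcor3 has 7.
Rcor2, chr19:7267144-7267443, plus strand: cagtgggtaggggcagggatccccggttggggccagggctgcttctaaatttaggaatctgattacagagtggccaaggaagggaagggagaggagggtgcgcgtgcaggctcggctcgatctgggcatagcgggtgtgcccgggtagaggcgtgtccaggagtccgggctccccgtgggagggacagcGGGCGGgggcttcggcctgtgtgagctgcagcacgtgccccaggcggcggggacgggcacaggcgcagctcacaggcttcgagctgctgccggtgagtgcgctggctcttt
Rcor3, chr1:192137991-192138290, minus strand: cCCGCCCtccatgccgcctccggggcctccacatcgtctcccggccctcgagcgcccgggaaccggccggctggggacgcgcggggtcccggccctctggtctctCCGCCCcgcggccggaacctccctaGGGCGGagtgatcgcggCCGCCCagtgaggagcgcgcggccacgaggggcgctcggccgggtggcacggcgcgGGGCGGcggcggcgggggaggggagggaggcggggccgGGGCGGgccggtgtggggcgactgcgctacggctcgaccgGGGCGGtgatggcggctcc

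Of the 8 genes, Rest had an FPKM at least 2-fold lower in NCs, and the other 7 lay within 2-fold. The 2-fold limit is the fold criterion of the study, used here without a p-value. All 8 genes had a mean FPKM over both conditions of at least 1. Over the 12782 genes of the table with such a mean, 9.94% were at least 2-fold lower in NCs and 11.1% at least 2-fold higher. One lower gene and none higher among 8 is near that background. With a limit of 1.5-fold, Rest and Sin3a were lower and Rcor3 was higher, where 18.8% of all genes were lower and 19.3% higher. The median log2 ratio of NC to ESC was 0.11 over the 8 genes and -0.04 over all 12782 genes. Summed over the table, FPKM came to 770592 for ESCs against 628679 for NCs. Rescaling both conditions to 1 total raised every log2 ratio by 0.29, and the median over all genes became 0.26. On that scale 6.77% of all genes were at least 2-fold lower and 16.4% at least 2-fold higher, and Rest was still the 1 gene of the 8 past the limit. Directions are therefore also given relative to the median gene, a measure that such rescaling leaves as it is. By that measure Rest, Sin3a and Sin3b were below the median gene and the other 5 above it.

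**Figure D1:**
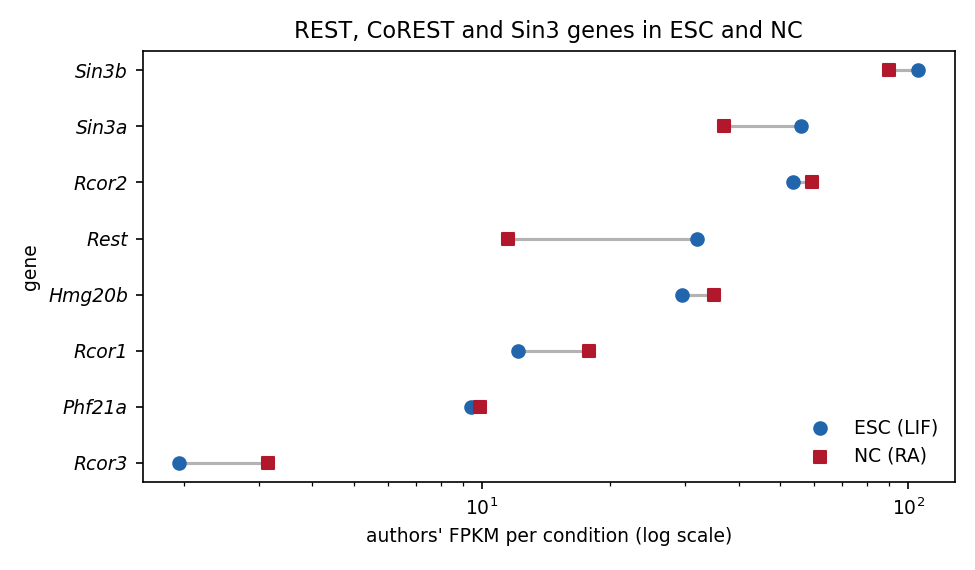
The authors' FPKM of each gene on a log axis in ESCs (circles) and NCs (squares), ordered by the ESC value, with 1 value per condition and no error bars because single samples were not analysed here. Rest has the longest line, from 32.0 to 11.5 FPKM.

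Rest (chromosome 5, 77265491 to 77286432, plus strand), which encodes the DNA-binding repressor, had 32.0 FPKM in ESCs against 11.5 in NCs. Its FPKM in NCs was 2.79-fold lower, a log2 ratio of -1.48, and -1.44 relative to the median gene. Of the 12782 genes, 5.53% had a log2 ratio as low. In ESCs 76.0% of these genes had a lower FPKM than Rest, and in NCs 49.7%, so Rest lay about the middle of the expressed genes in NCs. Among the 8 genes it moved from rank 4 to rank 6. It remained at least 2-fold lower with pseudocounts of 0.1 and 1, with rescaling to 1 total (log2 ratio -1.19) and with centring. The longest coding transcript of Rest has 4 exons and 7004 bases, and 0 of the 7172 words of 50 bases in its transcripts occurred in another gene. The FPKM is a sum over isoforms, so it does not separate full-length Rest from the neuronal splice form. Srrm4, the splicing factor that makes that form in neurons, had 0.201 FPKM in ESCs against 0.104 in NCs. In bulk RNA, fewer cells with Rest and less Rest per cell cannot be told apart.

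The 3 genes whose pair of values lay closest to that of Rest, by distance on log2(FPKM + 1) over the 2 conditions, were Trim6, Gm13154 and Smtnl2. Trim6 had 33.3 FPKM in ESCs against 12.1 in NCs, at a distance of 0.09. Gm13154 had 32.3 and 12.3 FPKM, also at 0.09, and Smtnl2 had 31.2 and 12.3 FPKM, at 0.10. With 2 values per gene this is a likeness of levels only.

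The CoREST genes had higher FPKM values in NCs, all within 2-fold. Rcor2 (chromosome 19, 7267325 to 7275225, plus strand), the paralog typical of ESCs, had 53.8 FPKM in ESCs against 59.6 in NCs, a log2 ratio of 0.15. Rcor1 (chromosome 12, 111039351 to 111115901, plus strand), the broadly expressed paralog, had 12.1 FPKM in ESCs against 17.8 in NCs, which is 1.47-fold higher. Rcor3 (chromosome 1, 192098546 to 192138062, minus strand) had 1.95 FPKM in ESCs against 3.15 in NCs, which is 1.62-fold higher. Rcor3 had the lowest level of the 8 genes in both conditions, and 12.7% of the expressed genes were lower in ESCs. Of the 50-base words in its transcripts, 7.16% also occurred in other genes, so the value of Rcor3 is the least certain of the 3 paralogs. For Rcor1 the share was 0.0887%, and for Rcor2 0 words were shared.

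FPKM is scaled by transcript length, so the paralogs can be set side by side. Rcor2 made up 79.2% of the summed CoREST FPKM in ESCs and 74.0% in NCs. Rcor1 held 17.9% in ESCs and 22.1% in NCs, and Rcor3 held 2.87% and 3.91%. Rcor2 was thus the main CoREST transcript in both conditions. The sum was 67.9 FPKM in ESCs against 80.6 in NCs.

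The Sin3 genes had lower FPKM values in NCs, also within 2-fold, though Sin3b was lower only on the deposited scale and relative to the median gene. Sin3a (chromosome 9, 57072040 to 57128366, plus strand) had 56.1 FPKM in ESCs against 36.9 in NCs, a log2 ratio of -0.60 or 1.52-fold. A log2 ratio as low was found for 18.1% of the expressed genes. Sin3b (chromosome 8, 72723285 to 72758201, plus strand) had 105 FPKM in ESCs against 90.2 in NCs, a log2 ratio of -0.22 that became 0.07 after rescaling to 1 total. Sin3b had the highest FPKM of the 8 genes in both conditions, above 93.0% of the expressed genes in ESCs and 92.8% in NCs. Sin3a took 34.7% of the summed Sin3 FPKM in ESCs and 29.0% in NCs. The span of Sin3a overlaps Man2c1os and 2700012I20Rik on the other strand, and 1.97% of its 50-base words also occurred in Man2c1os. The labels do not say whether fragments were counted by strand, so fragments of Sin3a and of these antisense genes cannot be told apart there. The same holds where Rcor1, Rcor3 and Phf21a overlap genes on the other strand, and among the genes named further on for Kdm1a, Ctbp1, Fam60a, Ctdspl, Cul1, Srrm4, Grin1 and Syp, among others.

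The remaining CoREST subunits lay within 2-fold, and Phf21a had the log2 ratio nearest to 0 of the 8 genes. Phf21a (chromosome 2, 92093117 to 92364666, plus strand) had 9.44 FPKM in ESCs against 9.90 in NCs, a log2 ratio of 0.07. Hmg20b (chromosome 10, 81346048 to 81350480, minus strand) had 29.4 FPKM in ESCs against 35.0 in NCs, a log2 ratio of 0.25. The 8 genes lie on 8 different chromosomes, so no pair of them is a neighbour in the genome.

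In ESCs the order from the highest level was Sin3b, Sin3a, Rcor2, Rest, Hmg20b, Rcor1, Phf21a and Rcor3. In NCs it was Sin3b, Rcor2, Sin3a, Hmg20b, Rcor1, Rest, Phf21a and Rcor3. Sin3a and Rcor2 were close in ESCs, as were Rest and Hmg20b in ESCs, Sin3a and Hmg20b in NCs and Rest and Phf21a in NCs. Without values of single samples it is not known whether these neighbours differ beyond their spread.

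**Figure D2:**
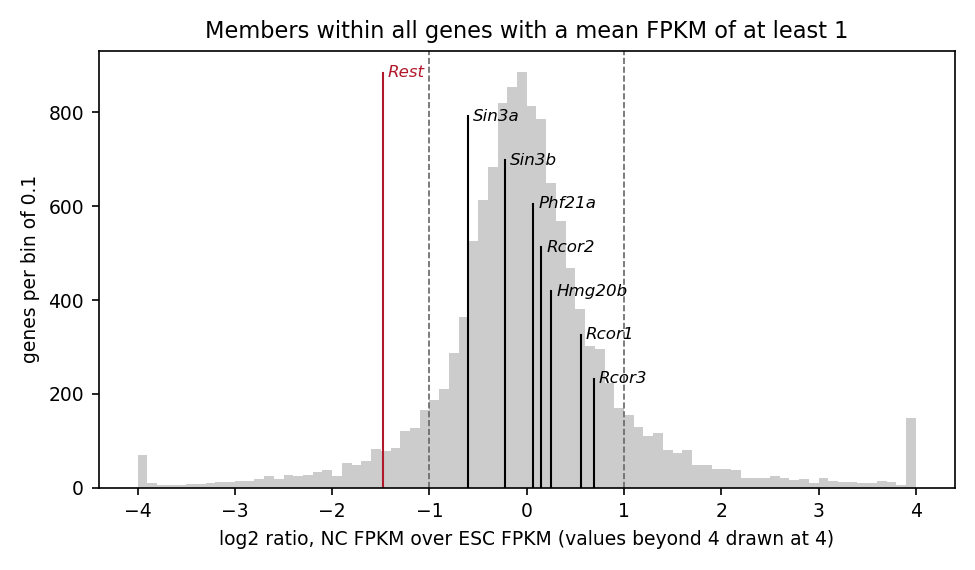
Histogram of the log2 ratio of NC to ESC FPKM over the genes with a mean FPKM of at least 1 and values above 0 in both conditions, with a vertical line at each of the 8 genes and dashed lines at 2-fold. Rest, at -1.48, lies outside the dashed lines, and the other 7 lie between -0.60 and 0.69.

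The levels of the cofactors relative to Rest followed from these values. The summed CoREST FPKM was 2.12 times that of Rest in ESCs and 7.02 times in NCs. The summed Sin3 FPKM was 5.05 times that of Rest in ESCs and 11.1 times in NCs. Hmg20b stood at 0.919 times Rest in ESCs and at 3.05 times in NCs, and Phf21a at 0.295 and 0.862 times. Kdm1a, which encodes the demethylase of the complex, stood at 3.35 and 8.30 times. Each of these ratios holds the 2.79-fold lower Rest value in its denominator, so they are not independent of each other.

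**Figure D3:**
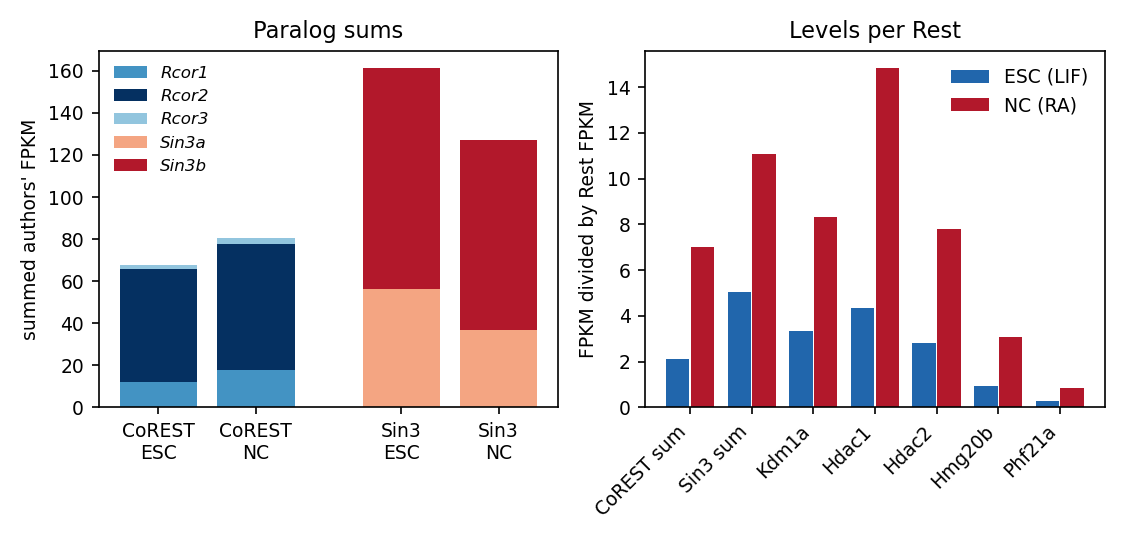
Left, summed authors' FPKM of the CoREST and Sin3 paralogs in ESCs and NCs, with each gene as a segment. Right, FPKM divided by that of Rest in ESCs (blue) and NCs (red), where the red bar is the higher one for each partner, for example 7.02 against 2.12 for the CoREST sum.

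The enzymes and adaptors of the CoREST complex lay within 2-fold, apart from Ctbp2. Of 11 partner genes, all with a mean FPKM of at least 1, 1 was at least 2-fold lower in NCs and 0 were higher. Over all genes with such a mean, 9.94% were lower and 11.1% higher by that limit. Ctbp2, a corepressor that binds NADH, had 96.3 FPKM in ESCs against 30.8 in NCs, a log2 ratio of -1.65. Its paralog Ctbp1 had 42.5 FPKM in ESCs against 78.2 in NCs, a log2 ratio of 0.88 that became 1.17 after rescaling to 1 total. The higher of the CtBP transcripts was thus Ctbp2 in ESCs and Ctbp1 in NCs. The span of Ctbp2 overlaps that of Fgfr2 on the same strand. Kdm1a had 107 FPKM in ESCs against 95.3 in NCs, a log2 ratio of -0.17 that became 0.12 after rescaling. Hdac1, a histone deacetylase of both the CoREST and Sin3 complexes, had 139 FPKM in ESCs against 170.4 in NCs. Its paralog Hdac2 had 90.2 and 89.4 FPKM, a log2 ratio of -0.01 that turned to 0.28 after rescaling and to 0.02 after centring. Gse1 and Phf21b, the paralog of Phf21a, had log2 ratios of 0.39 and 0.53.

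Of 18 genes for subunits of the Sin3 complex, 0 were past the 2-fold limit, where 9.94% of all genes were lower and 11.1% higher. The 18 genes had a median log2 ratio of -0.01, with 7 below and 11 above the median gene of the table. Their log2 ratios ran from -0.98 to 0.36. The lowest was that of Fam60a (Sinhcaf in GENCODE, chromosome 6, 148921035 to 148946467), a Sin3 subunit of ESCs, which had 245 FPKM in ESCs against 124 in NCs and was 1.98-fold lower. Next came Ogt, the O-GlcNAc transferase, with a log2 ratio of -0.52, then Sap30 with -0.51 and Sap130 with -0.49. The last 3 were near the log2 ratio of Sin3a.

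REST also brings corepressors and phosphatases besides these complexes. Of 9 such genes, 4 were at least 2-fold higher in NCs, where 11.1% of all genes were, and 0 were at least 2-fold lower. The 4 were the 3 small phosphatase genes, whose proteins act on RNA polymerase II and are recruited by REST, and Smarcc2, a subunit of the BAF remodeler. Ctdsp2 had 153 FPKM in ESCs against 369 in NCs, a log2 ratio of 1.27. Ctdsp1 had 12.3 FPKM in ESCs against 28.7 in NCs. Ctdspl had 2.55 FPKM in ESCs against 7.14 in NCs, which is 2.80-fold higher. Their sum was 168 FPKM in ESCs against 405 in NCs, with Ctdsp2 at 91.1% of it in both conditions. Smarcc2 had 9.63 FPKM in ESCs against 19.6 in NCs, a log2 ratio of 1.03 that became 0.96, within the limit, with a pseudocount of 1. The other genes lay within 2-fold, and those that follow were named after their values were seen. Smarca4, the BAF ATPase, had a log2 ratio of 0.0034, and the histone methyltransferase genes Ehmt2 and Ehmt1 had 0.09 and 0.19. Cdyl, a corepressor, had a log2 ratio of -0.66 and was 1.57-fold lower.

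Each of the 3 phosphatase genes contains a miR-26 gene on its own strand, and the mature forms are shown because they share 1 seed. Capitals mark the seed, bases 2 to 8, in the RefSeq sequences. Among the short genes themselves, Mir26b had 31.7 FPKM in ESCs and was listed at 0 in NCs, and Mir26a-1 was listed at 0 in both. No row carried the name Mir26a-2, the gene within Ctdsp2. The rows of Mir26b and Mir26a-1 are not levels of the mature miRNAs.
miR-26b-5p, within Ctdsp1, chr1:74394324-74394344, plus strand: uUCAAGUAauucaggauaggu
miR-26a-5p, within Ctdspl, chr9:119031811-119031832, plus strand: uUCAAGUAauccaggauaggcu
miR-26a-5p, within Ctdsp2, chr10:126995543-126995564, plus strand: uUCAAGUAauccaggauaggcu

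Of 7 genes of REST turnover and splicing, Srrm4 among them, 6 had a mean FPKM of at least 1. Of these 0 were past the 2-fold limit, where 9.94% of all genes were lower and 11.1% higher, and 5 lay below the median gene. The deubiquitinase genes Usp7 and Usp15 had log2 ratios of -0.73 and -0.58. Skp1a, a subunit of the ubiquitin ligase that marks REST, had a log2 ratio of -0.47. Cul1, the scaffold of that ligase, had 35.0 FPKM in ESCs against 65.8 in NCs, a log2 ratio of 0.91 that became 1.20 after rescaling to 1 total.

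DNA-binding proteins other than REST also recruit these complexes. Of 5 Mad and Mnt genes, whose proteins bring Sin3 to E-boxes, Mxd4 was at least 2-fold higher, where 11.1% of all genes were. Mxd4 had 3.18 FPKM in ESCs against 14.0 in NCs. The others had log2 ratios from -0.47 for Mxi1 to -0.0045 for Mnt, which was named after its value was seen, and after rescaling those of Mxd1, at -0.09, and Mnt turned to 0.20 and 0.29. Of 6 recruiters of CoREST, 4 had a mean FPKM of at least 1, and Snai1 and Snai2 were at least 2-fold higher. Over all genes with such a mean, 11.1% were. Snai1, a repressor of epithelial genes, had 2.20 FPKM in ESCs against 10.4 in NCs. Snai2 had 0.499 FPKM in ESCs against 3.08 in NCs, so it reached the minimum mean only through its NC value. With a mean FPKM of at least 5 required, Snai1 was the higher recruiter left. Insm1, a neuroendocrine factor, had a log2 ratio of 0.92 that became 1.21 after rescaling, and Zfp217 had -0.21 that became 0.08.

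**Figure D4:**
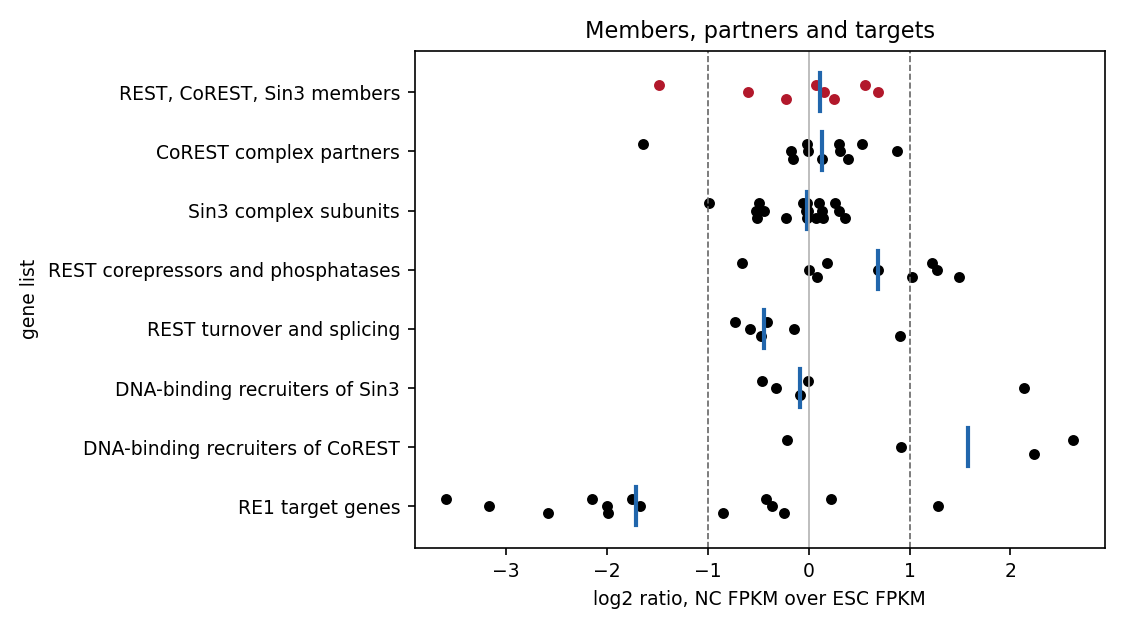
Log2 ratio of NC to ESC FPKM for each gene with a mean FPKM of at least 1, by list, with the median as a vertical bar and dashed lines at 2-fold. The median is 0.11 for the 8 genes and -1.71 for the RE1 targets.

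Of 29 RE1 target genes, 19 had a lower and 10 a higher FPKM in NCs on the deposited scale, where Rest was also lower. Of the 12782 genes with a mean FPKM of at least 1, 6702 were lower and 6080 higher. That set leaves out 15 of the 29 targets, so the 2 pairs of counts are not on like genes. Without a filter on low values 12 of the 29 were at least 2-fold lower and 3 at least 2-fold higher. The share over all genes without that filter was not computed. The 14 with a mean FPKM of at least 1 included 8 at least 2-fold lower and 1 at least 2-fold higher. Over all genes with such a mean, 9.94% were lower and 11.1% higher by that limit. The median log2 ratio of the 14 targets was -1.71. Of these 8 lower genes, 5 were under 1 FPKM in NCs and reached that mean only through their ESC value. A filter on the mean lets in genes that are high in either condition alone, so the count and the median are a description only. Stmn2, a tubulin-binding protein of growing axons, had 142 FPKM in ESCs against 11.8 in NCs. Tubb3, the neuronal tubulin, had 33.4 FPKM in ESCs against 7.54 in NCs. Grin1, an NMDA receptor subunit, had 3.73 FPKM in ESCs against 0.622 in NCs, and Syp, a synaptic vesicle protein, had 3.88 and 0.968 FPKM. In ESCs Stmn2 and Tubb3 had a higher FPKM than Rest, and the other 2 genes had a lower one.

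The genes with the printed RE1 letters were named for those letters. Unc13a, which primes synaptic vesicles, had 1.98 FPKM in ESCs against 0.220 in NCs. Celsr3, an axon guidance cadherin, had 1.90 FPKM in ESCs against 0.564 in NCs. Syn1, a synaptic vesicle protein, had 5.33 FPKM in ESCs against 2.95 in NCs, within 2-fold. Scg2 had 0.0126 and 0.0150 FPKM, near 0 in both conditions. Chrm4, a muscarinic receptor gene named after its value was seen, was the higher one, with 1.78 FPKM in ESCs against 4.33 in NCs, and with a pseudocount of 1 it was within 2-fold. The 15 genes with a lower mean had at most 1.21 FPKM in either condition. With a mean FPKM of at least 5 required, Stmn2 and Tubb3 were the lower genes left.

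**Figure D5:**
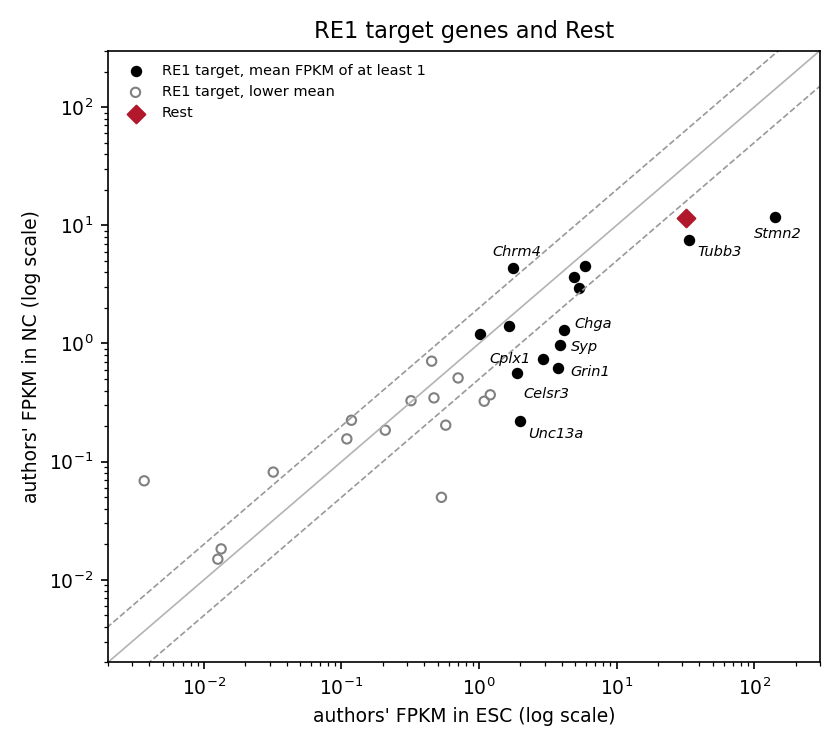
The authors' FPKM in NCs against that in ESCs on log axes for the 29 RE1 targets and Rest, with the line of equal values and dashed lines at 2-fold. Rest and 8 targets with a mean FPKM of at least 1 (filled points) lie below the lower dashed line, and Chrm4 lies above the upper one.

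Markers of cell types also differed between ESCs and NCs, and whether cell types had a part in the values above was not tested. Counts past 2-fold are over markers with a mean FPKM of at least 1, beside 11.1% of all genes higher and 9.94% lower. All 10 pluripotency markers were at least 2-fold lower in NCs, with a summed FPKM of 6315 in ESCs and 954 in NCs. All 5 genes of the RA response were at least 2-fold higher. Of 8 neural progenitor markers, 6 had that mean and 5 of these were higher, and the list summed to 19.4 FPKM in ESCs against 155 in NCs.

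Of 8 neuron markers, 5 had that mean, and 2 of these, Elavl3 and Nefl, were at least 2-fold lower and 0 higher. The list summed to 29.5 FPKM in ESCs against 14.4 in NCs. Dcx was the 1 neuron marker with a higher value, at 0.0140 FPKM in ESCs and 0.334 in NCs, under the minimum mean. Of 6 endoderm markers, 5 had that mean and 4 of these were higher, with sums of 16.2 and 37.8 FPKM. Of 5 mesoderm markers, Meox1 alone had that mean, with 0.253 FPKM in ESCs against 5.43 in NCs. Under that mean, Kdr had a higher value in NCs, with 0.339 FPKM in ESCs against 0.697 in NCs. T, Mesp1 and Tbx6 had lower values in NCs, of which rescaling to 1 total left T lower. Of 4 fibroblast markers, Col1a1 and Col1a2 were higher, and Thy1 was lower, with 9.64 FPKM in ESCs against 1.80 in NCs. None of these markers was listed at 0 in either condition.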

How the data were processed

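RNA was sequenced from 3 ESC samples and 3 NC samples. The submitters' processing notes name the build mm10, the aligners Bowtie2 (version 2.1.0) and TopHat2 (version 2.0.8), and Cufflinks (version 2.0.2). The authors' methods add Cuffmerge and Cuffdiff for the comparison of ESCs with NCs. The deposited table gives FPKM, 1 value per gene and condition. The NC column is headed FPK and was read as FPKM. The table also holds the authors' own fold change, test statistic, p and q columns, which were not used.

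From the FPKM the ratio of NC to ESC was computed without a pseudocount. Genes with a mean FPKM of at least 1 were kept (12782 of 22969 names), and a gene at 0 in 1 condition counted as past the limit. For the 160 names with several rows the row with the highest mean was taken. No list gene was among them. The members and lists were chosen with earlier results of these data known. In each list the 4 genes with the largest absolute log2(FPKM + 1) ratio were named, with Kdm1a, Hdac1, Hdac2 and Srrm4. The calls were tested on simulated data with planted changes, which checks the code and not the precision of the values. Positions, transcripts and 50-base words came from GENCODE M21 (GRCm38, the assembly mm10 denotes), and promoters and miRNAs from RefSeq. Alternatives were pseudocounts of 0.1 and 1, rescaling, centring, summed rows, other filters and a 1.5-fold limit. Python 3.11.15, numpy 2.4.6, pandas 2.3.3 and matplotlib 3.10.9 were used.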

Additional observations from a re-analysis of the deposited data

How the results depend on the processing

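The table holds no values of single samples and no counts, so no replicate could be left out and precision is unknown. No paired analysis was possible because the columns carry no replicate numbers. With a 1.5-fold limit, 2 of the REST, CoREST and Sin3 genes were lower and 1 was higher. In the same setting 1 CoREST partner was higher, 1 Sin3 subunit and 1 corepressor were lower, and 1 turnover gene was lower and 1 higher. Over all genes with a mean FPKM of at least 1, 18.8% were lower and 19.3% higher by that limit. After rescaling to 1 total, 1 CoREST partner and 1 turnover gene were at least 2-fold higher, where 16.4% of all genes were. Without a filter on low values, 1 recruiter of CoREST was lower and 3 RE1 targets were higher. With a mean FPKM of at least 5, 1 recruiter of CoREST was higher, and 2 RE1 targets were lower and 0 higher. With a pseudocount of 1, 0 RE1 targets were higher. Shares over all genes without the filter, with a mean FPKM of at least 5 and with a pseudocount were not computed. The other counts stayed within 1.5 times of those reported, and summed rows left every share and count as it was.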

Other observations

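Paralogs within the complexes were also set against each other. Of 11 pairs, chosen after the values were seen, the share of the first gene in the summed FPKM of the pair moved most for Ctbp1 and Ctbp2. Ctbp1 held 30.6% of that pair in ESCs and 71.7% in NCs. Next was Arid4a, a chromatin-binding Sin3 subunit, with 39.3% of the Arid4a and Arid4b sum in ESCs and 28.5% in NCs. Phf21a held 80.7% of the Phf21a and Phf21b sum in ESCs and 75.2% in NCs. Hdac1 held 60.6% of the Hdac1 and Hdac2 sum in ESCs and 65.6% in NCs. For Rbbp4 and Rbbp7 the share of Rbbp4 was 36.4% and 35.8%, and for Ing1 and Ing2 that of Ing1 was 75.7% and 75.8%. In the remaining 5 pairs the share moved by -5.70 to 1.69 percentage points. Such a share does not depend on how the conditions are scaled to each other. No values of single samples stand behind these shares, so their spread is unknown.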
